A study of Mus musculus with 11 samples.

Results

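The comparison described here sets 4 of the study's 11 RNA-seq libraries against each other: 2 from cells depleted of Rbm38 and 2 from cells depleted of both Khsrp (also called Fubp2) and Fubp1, the double knockdown. The 4 libraries were taken by their labels, and the question is which exons lie at opposite ends in the 2 knockdowns. All libraries hold polyA RNA of N2A (Neuro-2A) cells, an established mouse neuroblastoma line, transfected with pools of siRNAs and harvested 48 h later. The other groups serve as reference: a non-targeting siRNA control (siNT, 3 libraries) and the single knockdowns of Khsrp and of Fubp1 (2 libraries each). The groups share line, transfection and harvest time, the knockdowns leave some target mRNA, and the control carries siRNA as well. The series' text calls the knockdown libraries biological duplicates. The libraries compared carry numbers from 8 to 27 in their names, as do both Khsrp libraries and siNT replicate C, whereas siNT replicates A and B and both Fubp1 libraries carry 1 to 4. What the numbers stand for was not given in the sources used here.

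Cassette exons are exons that a transcript can include or skip, and microexons, here of 3 to 27 nt, are the shortest of them. Many microexons are used in neurons and lie in proteins of vesicle traffic, adhesion and the cytoskeleton, where a few added residues alter a binding surface. Srrm4 and its relative Srrm3 promote their inclusion, and Ptbp1 opposes that of many. Fubp1 and Khsrp are relatives that bind single-stranded nucleic acid through KH domains, and Khsrp is known for the neural N1 exon of Src and for decay of AU-rich mRNAs. Rbm38 carries an RNA recognition motif, is induced by p53, and is known for splicing and mRNA stability in differentiating cells.

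The exon sequences below are those on which the comparison turns: the first 6 were included in the Rbm38 knockdown and mostly skipped in the double knockdown, the next 2 had the control in between and a partial loss in the double knockdown, and the last went the other way. Capitals mark the exon, and lower case the 15 bases on either side in the spliced transcript (GENCODE vM21, GRCm38).
Synj1 24 nt: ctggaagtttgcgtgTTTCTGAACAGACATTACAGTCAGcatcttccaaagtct
Senp6 21 nt: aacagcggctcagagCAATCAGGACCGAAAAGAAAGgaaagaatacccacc
Clasp2 24 nt, first: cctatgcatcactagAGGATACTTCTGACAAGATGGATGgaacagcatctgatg
Clasp2 24 nt, second: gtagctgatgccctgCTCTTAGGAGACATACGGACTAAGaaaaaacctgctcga
Trim9 24 nt: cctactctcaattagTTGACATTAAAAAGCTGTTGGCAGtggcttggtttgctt
Dync1i2 60 nt: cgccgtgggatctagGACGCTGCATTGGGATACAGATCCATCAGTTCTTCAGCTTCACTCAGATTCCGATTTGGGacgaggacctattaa
Ank2 12 nt: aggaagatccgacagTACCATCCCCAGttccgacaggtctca
Trappc13 18 nt: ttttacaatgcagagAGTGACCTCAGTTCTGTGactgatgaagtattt
Mtss1 12 nt: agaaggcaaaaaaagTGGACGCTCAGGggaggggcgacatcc
All 9 lie in coding sequence, have a length divisible by 3 and hold no stop codon in frame. In GRCm38 the exons lie at chr16:90971564-90971587 (Synj1, minus strand), chr9:80098886-80098906 (Senp6, plus), chr9:113858581-113858604 and chr9:113878750-113878773 (Clasp2, plus), chr12:70252020-70252043 (Trim9, minus), chr2:71233649-71233708 (Dync1i2, plus), chr3:126979256-126979267 (Ank2, minus), chr13:104152165-104152182 (Trappc13, minus) and chr15:58964497-58964508 (Mtss1, minus).

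The targeted genes bore out the labels at the level of mRNA. Expression was deposited as 1 RPKM value per group (reads scaled to transcript length and library size), so it has no error and no test here. Rbm38 stood at 34.5 RPKM in siNT, 4.03 in the Rbm38 knockdown and 22.5 in the double knockdown. Fubp1 stood at 180 RPKM in siNT, 135 in the Rbm38 knockdown and 19.8 in the double knockdown, and Khsrp at 47.0, 33.8 and 6.77. Each target was thus lowest in its own knockdown, and all 3 were below siNT in both by RPKM. In the authors' deposited table the log2 fold change of Rbm38 in the double knockdown against siNT was only -0.15 (FDR 0.913). In the Rbm38 knockdown that table gave -0.39 for Fubp1 (FDR 0.0796) and -0.70 for Khsrp (FDR 0.0243). Fubp3, the third member of the family, was at 68.5, 56.7 and 54.2 RPKM, and Rbm24, the closest relative of Rbm38, was listed at 0 in all 5 groups. The line's identity was visible in both knockdowns: 11 of 12 neural crest tumour line markers reached 1 RPKM in either knockdown, against 3 of 15 mesenchymal, 4 of 12 glial and 1 of 10 immune cell markers, of which 4 immune markers were listed at 0 in both. All 11 neural crest markers had a higher level in the Rbm38 knockdown than in the double knockdown (summed 1611 against 1075 RPKM), with 3 past 2-fold. Of all 13340 genes with at least 1 RPKM in either knockdown, 795 (5.96%) passed 2-fold in that direction. The median log2 ratio of RPKM + 1 was 0.64 for these 11 markers and 0.005 for all genes.

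Splicing separated both knockdowns widely, mostly through exons that were included after Rbm38 depletion and skipped after the joint depletion of Khsrp and Fubp1. Inclusion is given as PSI, the percentage of transcripts that hold an exon, intron or splice site, with a median of 167 and 166 reads per tested event in the Rbm38 libraries and 133 and 99 in the double knockdown libraries. Of 60137 tested events, 3246 (5.40%) in 1912 genes were called, meaning a limma adjusted p below 0.05 and mean PSI values at least 10 points apart. Of these, 2385 (3.97% of the tested events) had the higher PSI in the Rbm38 knockdown and 861 (1.43%) in the double knockdown. Cassette exons of 28 nt or more gave 2554 calls among 20841 tested (12.3%), 1945 higher (9.33%) and 609 lower (2.92%) in the Rbm38 knockdown. Of all 21319 exons tested, microexons included, 14923 stood above 80% in siNT, where PSI can fall farther than it can rise. The part of this in the split of directions was not tested. Longer exons at 20 to 80% in siNT were nearer balance, with 326 higher and 249 lower. Microexons gave 135 among 478 (28.2%), 131 higher (27.4%) and 4 lower (0.837%). Retained introns gave 388 among 26595 (1.46%), alternative 3′ splice sites 94 among 7032 (1.34%) and alternative 5′ splice sites 75 among 5191 (1.44%). The count rests on all 4 libraries: it was 1735 without Rbm38 replicate A, 1881 without Rbm38 replicate B and 1970 without double knockdown replicate A, and 1945 when these 4 libraries alone were fitted. At an unadjusted limma p below 0.05 there were 11488 of the 60137 events, where a share of 0.05 is reached without any difference.

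**Figure D1:**
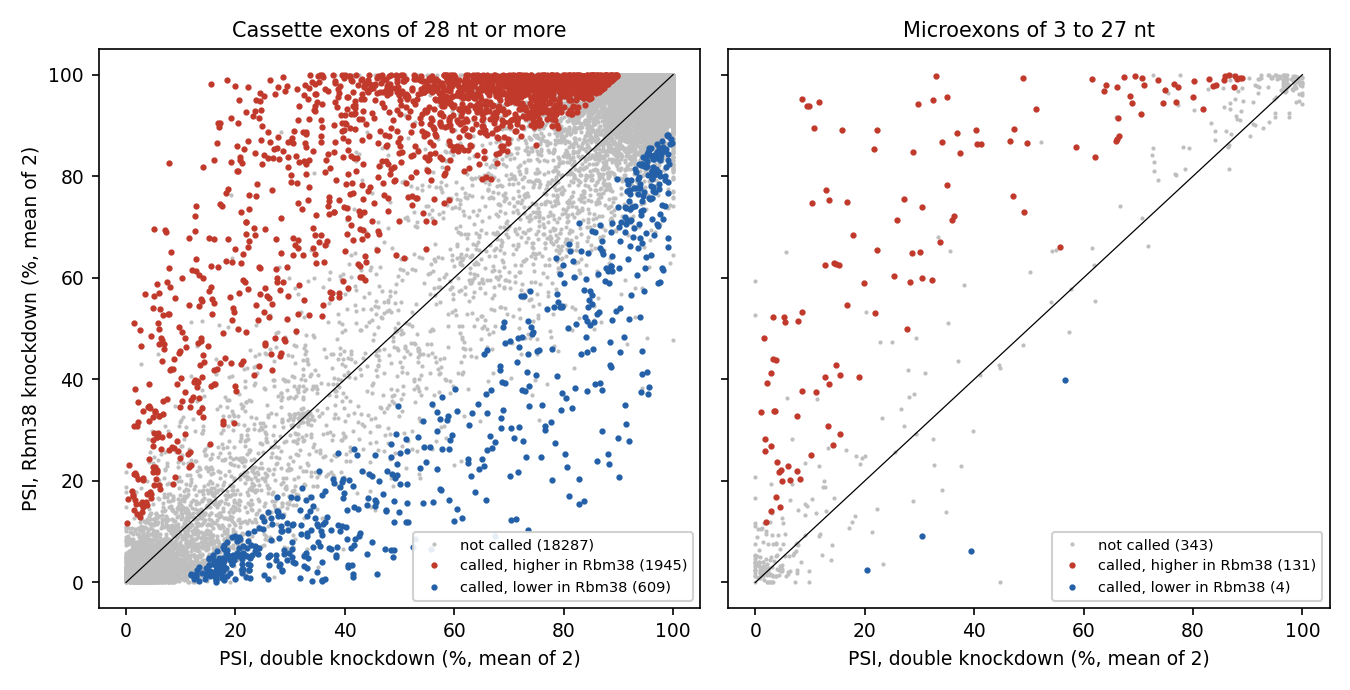
Mean PSI (%) of each tested cassette exon in the double knockdown (horizontal) and the Rbm38 knockdown (vertical), for exons of 28 nt or more (left) and microexons (right); red and blue points passed the test and the 10-point threshold, grey points did not, and the line marks equal PSI. Among microexons 131 called points lie above the line and 4 below it, and among longer exons 1945 and 609.

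Among microexons, the largest differences were those of exons of 6 to 24 nt in regulators of vesicles, SUMO proteins and microtubules. The 24-nt exon of Synj1, a phosphoinositide phosphatase of synaptic vesicle recycling, had PSI 92.0% and 98.5% in the 2 Rbm38 libraries and 9.43% and 7.51% in the 2 double knockdown libraries. The siNT libraries stood at 78.2%, 76.9% and 74.4%, and the 4 single knockdown libraries between 52.6% and 57.3%. The difference between both knockdowns was 86.8 points (limma adjusted p = 7.78e-05), so all libraries of the Rbm38 knockdown lay above the control and those of the double knockdown below it. The 21-nt exon of Senp6, a SUMO protease, was at 94.4% and 93.3% after Rbm38 depletion and at 10.8% and 8.14% in the double knockdown (84.4 points, adjusted p = 1.23e-05). Here the control, at 93.2% ± 1.56 (SD, n = 3), overlapped with the Rbm38 libraries, and the single knockdown libraries were at 80.3% to 88.2%. A 6-nt exon of Hook3, which links cargo to dynein, was at 91.8% and 95.9% against 12.3% and 7.22%, with the control at 76.8% ± 1.89 (SD, n = 3), and its difference was 84.1 points (adjusted p = 1.28e-05). The second 24-nt exon of Clasp2, a protein that stabilises microtubule plus ends, was at 89.4% and 89.5% against 7.78% and 13.6% (78.8 points, adjusted p = 0.000119).

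Longer exons with the largest differences had control means of 71.6% to 99.5%, a like or higher level in the Rbm38 knockdown, and were mostly skipped in the double knockdown. The 110-nt exon of Hectd2, a ubiquitin ligase, was at 97.0% and 99.3% in the Rbm38 libraries and at 17.2% and 13.9% in the double knockdown libraries, with the control at 95.3% ± 1.71 (SD, n = 3). A 53-nt exon of Rasa1, a GTPase-activating protein for Ras, was at 100% and 98.0% against 15.3% and 21.6% (80.5 points, adjusted p = 0.000829). That call was lost without Rbm38 replicate B (adjusted p = 0.148). A 195-nt exon of Exoc5, a subunit of the exocyst, was at 99.2% and 95.8% against 14.4% and 30.01%. The 117-nt exon of Erbin (listed as Erbb2ip), a scaffold of the ErbB2 receptor, was at 83.7% and 81.5% against 6.75% and 9.03%, and a 102-nt exon of Casd1, a sialic acid acetyltransferase, at 94.6% and 95.4% against 20.3% and 21.1%. In these 5 exons the double knockdown also lay below each of the 4 single knockdown libraries, which spanned 44.8% to 98.5%. A 108-nt exon of Ehbp1, which joins endocytic vesicles to actin, had the control at 71.6% ± 2.57 (SD, n = 3), below both Rbm38 libraries, each at 89.7%, and above the double knockdown at 18.4% and 15.5%. The 111-nt exon of Odf2l and the 646-nt exon of Ap5m1 (listed as Mudeng) gave differences of 73.7 and 73.4 points.

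Exons that were higher in the double knockdown were fewer, and the 8 largest had control means of 15.9% to 60.4%. The 199-nt exon of Ppp1r9a (neurabin, which targets protein phosphatase 1 to actin) was at 24.4% and 17.2% in the Rbm38 libraries and 91.6% and 88.8% in the double knockdown libraries (-69.4 points, adjusted p = 0.000205). The control stood at 21.7%, 34.9% and 32.6%, and the Fubp1 libraries, at 80.8% and 85.04%, were near the double knockdown, whereas the Khsrp libraries were at 31.5% and 46.1%. An 84-nt exon of Crocc, the rootletin of ciliary rootlets, was at 16.3% and 15.9% against 81.9% and 85.4%, with the control at 38.2% ± 10.3 (SD, n = 3). A 222-nt exon of Ccdc136 was at 16.7% and 17.4% against 80.7% and 81.5%. A 250-nt exon of Ggcx, the vitamin K-dependent carboxylase, was at 12.5% and 12.5% against 73.0% and 69.6%, and lies in an untranslated region of the matched transcript. The exons of 4933427D14Rik (67 nt), Eno4 (118 nt), Srrm3 (79 nt) and Serp2 (149 nt) completed the 8 largest, with differences from -63.1 to -53.7 points. The call for Serp2 was lost without double knockdown replicate A (adjusted p = 0.108), and that for Eno4 without double knockdown replicate A (0.0938), Rbm38 replicate A (0.106) or Rbm38 replicate B (0.118). That for Srrm3 was lost without double knockdown replicate A (0.232) or Rbm38 replicate B (0.14). Only 4 microexons were higher in the double knockdown. The 12-nt exon of Mtss1, a membrane-bending actin regulator, was at 6.02% and 6.42% against 43.7% and 35.3% (adjusted p = 0.000296), with the control from 8.01% to 9.12%. The 25-nt exon of Tyw5 (listed as 1110034B05Rik) was at 8.82% and 9.43% against 30.4% and 30.6%. The 3-nt exon of Abca2 and the 12-nt exon of Agrn differed by -18.02 and -16.7 points. The call of Abca2 was lost without double knockdown replicate A (adjusted p = 0.0776), Rbm38 replicate A (0.0503) or Rbm38 replicate B (0.0711). That of Agrn was lost without any single library other than siNT replicate C (0.0517 to 0.223).

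The control lay between both knockdowns, at least 5 points from each, in 726 of the 3246 called events (22.4%), in 580 genes: these are the events in which the knockdowns stood on opposite sides of siNT. In 478 of the 726 the Rbm38 knockdown was the higher and in 248 the lower. The control lay within 5 points of the Rbm38 knockdown in 2305 called events (71.0%), within 5 points of the double knockdown in 74 (2.28%) and outside the range of both in 141 (4.34%). Microexons had the control in between in 72 of 135 calls (53.3%), exons of 28 nt or more in 478 of 2554 (18.7%), retained introns in 109 of 388 (28.1%), and alternative 3′ and 5′ splice sites in 37 of 94 (39.4%) and 30 of 75 (40.0%). The 72 microexons were all higher in the Rbm38 knockdown, with a median of 12.7 points above siNT for Rbm38 and 23.1 points below it (-23.1) for the double knockdown, and 69 of them have a length divisible by 3. Among longer exons higher in the Rbm38 knockdown, 287 of 1945 (14.8%) had the control in between, and among those lower in it 191 of 609 (31.4%). All 3 siNT libraries lay between the libraries of both knockdowns, without overlap, in 555 of the 726 events. Replicate C of siNT, the control library of the same number set, lay between the knockdown means with the same margins in 537. The count fell to 377 without double knockdown replicate A, 427 without double knockdown replicate B and 480 without Rbm38 replicate A.

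The distance of the Rbm38 knockdown from the control was small beside that of the double knockdown, and few of its events passed a test on their own. Both contrasts below use the same siNT libraries, so their values are only set side by side. Against siNT, the double knockdown had 2751 events called lower and 972 called higher (4.57% and 1.62% of the tested events, 6.19% in all). The Rbm38 knockdown had 10 called higher and 0 called lower (0.0166%) by limma, with 5 of the 10 among the 726 events above. These 10 calls were marginal. Leaving out any single library other than siNT replicate C gave 0 calls, as did fits without weights or with a term for the library set, and leaving out siNT replicate C gave 41 (29 higher and 12 lower). At an unadjusted limma p below 0.05 the Rbm38 knockdown had 4938 of the 60137 tested events against siNT, 2486 higher and 2452 lower. A share of 0.05 is reached there without any difference. The double knockdown count of 3723 was 2449 without double knockdown replicate A and 1696 with a term for the library set. Among the 726 events with the control in between, the adjusted p against siNT was below 0.05 for the double knockdown in 412 and for the Rbm38 knockdown in 5. These events were chosen by their distance from the control, so these 2 counts are descriptions. In the authors' deposited table, 3077 of the 3246 called events carried a call, which marked 2788 for the double knockdown against siNT and 419 for the Rbm38 knockdown against siNT. Of the 47908 tested events with a call there, that table marked 7144 (14.9%) and 1240 (2.59%).

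The 12 exons that stood farthest from the control on both sides included 10 with the higher PSI in the Rbm38 knockdown. A 60-nt exon of Dync1i2, an intermediate chain of cytoplasmic dynein, was at 59.9% and 53.02% in the Rbm38 libraries, 32.2%, 28.6% and 31.0% in siNT, and 4.90% and 5.28% in the double knockdown libraries. No libraries of these 3 groups overlapped, and the exon was covered by at least 1795 reads in every library. It differed by 51.4 points between the knockdowns (limma adjusted p = 8.63e-06), and against siNT by 25.9 points for Rbm38 (adjusted p = 0.032, a call lost without any single library other than siNT replicate C) and -25.5 points for the double knockdown (adjusted p = 1.45e-05). Ckap5 encodes a microtubule polymerase, and its 24-nt exon (chr2:91599604-91599627 in GRCm38, plus strand) was matched to a transcript without annotated coding sequence. That exon was at 74.0% and 75.5% after Rbm38 depletion, 56.5%, 48.3% and 47.2% in siNT, and 11.6% and 9.16% in the double knockdown. The first 24-nt exon of Clasp2 was at 79.5% and 71.1%, 48.6%, 45.2% and 49.7%, and 10.3% and 16.6% in the same order. Its second 24-nt exon had a control level of 81.0% ± 1.47 (SD, n = 3). Trim9, a neuronal ubiquitin ligase of axon branching, had its 24-nt exon at 83.6% and 71.0%, 44.5%, 40.5% and 60.6%, and 19.8% and 6.15%, at a depth of at least 24 reads, and that call was lost without Rbm38 replicate A (adjusted p = 0.0728). Ank2, an ankyrin that ties membrane proteins to spectrin, had its 12-nt exon at 89.4% and 88.8%, 65.4%, 62.9% and 67.4%, and 45.8% and 34.8%. In this exon the Khsrp libraries, at 27.5% and 44.1%, were as low as the double knockdown, and the Fubp1 libraries, at 73.3% and 60.3%, were near the control. The 18-nt exon of Trappc13 (listed as 2410002O22Rik), a subunit of a vesicle tethering complex, was arranged likewise: 76.3% and 74.7% for Rbm38, 50.8% to 54.2% in siNT, 32.8% and 31.0% for Khsrp, 62.8% and 56.03% for Fubp1, and 26.9% and 27.5% in the double knockdown.

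**Figure D2:**
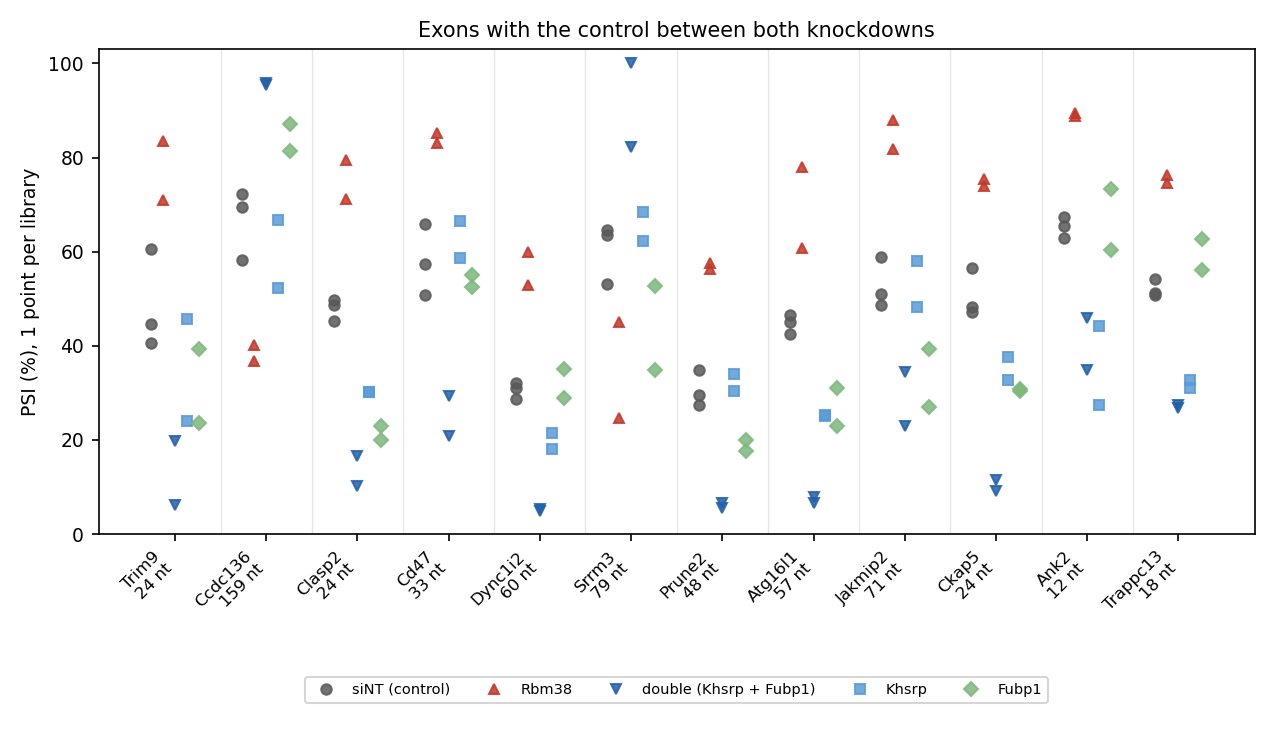
PSI (%) of the 12 exons with the control farthest from both knockdowns, 1 point per library: siNT (grey circles), Rbm38 (red triangles), double knockdown (dark blue triangles), Khsrp (light blue squares) and Fubp1 (green diamonds). In 10 of the 12 the Rbm38 libraries lie at the top and the double knockdown below siNT, and in Ccdc136 and Srrm3 the order is turned around.

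The remaining exons of this set were longer: Cd47 (33 nt), Prune2 (48 nt), Atg16l1 (57 nt), Jakmip2 (71 nt), Srrm3 (79 nt) and Ccdc136 (159 nt). The exon of Cd47, the receptor that signals to phagocytes, was at 83.1% and 85.1% in the Rbm38 libraries, 50.8% to 65.8% in siNT and 20.9% and 29.4% in the double knockdown. The exon of Prune2 was at 57.6% and 56.4%, 27.5% to 34.8% and 6.50% and 5.44%, and that of Atg16l1, an autophagy protein, at 78.0% and 60.8%, 42.5% to 46.5% and 7.91% and 6.50%. The exon of Jakmip2 was at 88.03% and 81.8%, 48.8% to 58.9% and 23% and 34.5%. The 159-nt exon of Ccdc136 went the other way, at 36.8% and 40.1% in the Rbm38 libraries, 58.3% to 72.2% in siNT and 95.9% and 95.5% in the double knockdown. The 79-nt exon of Srrm3, itself a promoter of microexon inclusion, was at 45.1% and 24.7%, 53.03% to 64.5%, and 82.3% and 100%. Its spread was wide and its depth low (at least 24 reads), and the call was lost without double knockdown replicate A (adjusted p = 0.232) or Rbm38 replicate B (0.14).

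The 10 events that passed the test for Rbm38 against siNT were all higher after Rbm38 depletion, and 8 of them were called between the knockdowns too. They were picked for naming with their values known. Their adjusted p against siNT ran from 0.0313 to 0.0405, and each call was lost without any single library other than siNT replicate C. In Dync1i2, Mgea5 (86 nt), Phldb1 (45 nt), Prune2 (36 nt) and Pxdn (72 nt) both double knockdown libraries lay below all siNT libraries. In Phldb1 the 45-nt exon was at 32.1% and 38.9% in the Rbm38 libraries, 6.68%, 9.42% and 9.65% in siNT, and 2.75% and 1.60% in the double knockdown (33.3 points between the knockdowns, adjusted p = 0.000291). In Prune2 the 36-nt exon was at 51.6% and 50.5%, 21.1%, 21.1% and 15.97%, and 1.10% and 1.97%. In Mgea5, which encodes the enzyme that removes O-linked N-acetylglucosamine, the exon was at 97.6% and 97.7%, 84.8% to 89.4%, and 62.5% and 59.2%. The 151-nt exon of Gabbr1, a subunit of the GABA-B receptor, was at 84.4% and 87.8% against 44.1% to 56.9% in siNT and 44.3% and 51.0% in the double knockdown, so the double knockdown overlapped with the control and the Rbm38 libraries stood above both. In Eif4h, Psap, Mprip and the 711-nt exon of Mapt the double knockdown mean was also above the control. The 60-nt exon of Eif4h and the 9-nt exon of Psap differed between the knockdowns by 10.8 and 10.3 points, and the exons of Mprip and Mapt, at 7.14 and 2.96 points, were not called between them. The call of Eif4h between the knockdowns was lost without any of the 4 libraries compared (adjusted p = 0.0612 to 0.189), and that of Psap without either double knockdown library or Rbm38 replicate A (0.0627 to 0.0828). Without weights both were lost (0.2 and 0.198).

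Microexons differed more often than longer exons of like inclusion, and nearly all in 1 direction. At 20 to 80% inclusion in siNT, 68 of 123 microexons were called (55.3%), 67 higher (54.5%) and 1 lower (0.813%) in the Rbm38 knockdown, with a median difference of 26.9 points over all 123. Of the longer exons in the same range, 575 of 2146 were called (26.8%), 326 higher (15.2%) and 249 lower (11.6%), with a median difference of -0.37 points over all 2146. The median PSI of those 123 microexons was 55.4% and 56.5% in the Rbm38 libraries, 46.5%, 44.7% and 46.2% in siNT, and 26.7% and 25.9% in the double knockdown. It was 37.7% and 32.9% in the Khsrp libraries and 40.6% and 39.4% in the Fubp1 libraries, so every single knockdown library lay between the control and the double knockdown. The corresponding medians of the longer exons all lay between 51.4% and 55.4%. No test between exon classes was made.

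**Figure D3:**
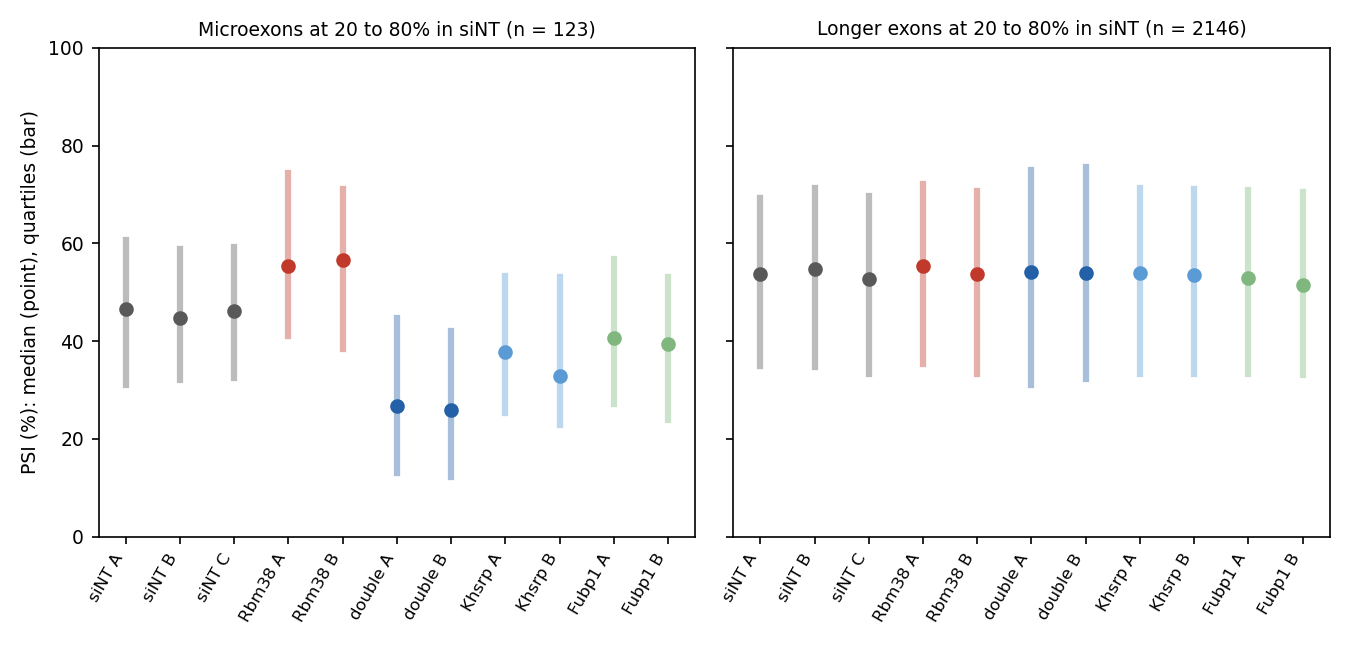
Median PSI (%, points) and quartiles (bars) in each of the 11 libraries, for the 123 microexons (left) and the 2146 longer exons (right) with 20 to 80% inclusion in siNT. Microexon medians are highest in both Rbm38 libraries (55.4% and 56.5%) and lowest in both double knockdown libraries (26.7% and 25.9%), and medians of longer exons stay between 51.4% and 55.4%.

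Calls at each microexon length were mostly higher in the Rbm38 knockdown. Exons of 3 to 9 nt were called in 25.9% (24.7% higher, 1.18% lower), exons of 10 to 15 nt in 33.7% (31.6% and 2.11%), exons of 16 to 21 nt in 26.4%, all higher, and exons of 22 to 27 nt in 27.7% (27.1% and 0.565%). Exons of 28 to 60 nt were called in 13.4% (9.52% and 3.91%), exons of 61 to 120 nt in 12.3% (9.11% and 3.19%), the next class, up to 200 nt, in 12.4% (9.95% and 2.44%) and longer ones in 10.5% (8.18% and 2.3%). Both Rbm38 libraries lay above both double knockdown libraries in 57.5% of all tested microexons and in 37.8% of longer exons, against 29.6% of all events, and below both in 11.7% and 22.7%, against 18.9%. Of the 131 microexons called higher, 118 have a length divisible by 3, and their differences ran from 10.1 to 86.8 points with a median of 30.3. Both double knockdown libraries lay below all siNT libraries in 124 of the 131, and the double knockdown mean lay below both single knockdown means in 118. Both Rbm38 libraries lay above all siNT libraries in 85. Over all 478 microexons the shares not overlapping with siNT in these directions were 47.5% for the double knockdown and 36.4% for Rbm38, and over all tested events 26.6% and 10.6%. The 131 were chosen for their difference between the knockdowns, which favours such counts, so nothing is read from them. The 131 entries stand for 130 distinct exons, since Senp6 has 2 entries for the same 21 nt. Leaving out single libraries gave 94 to 132 such microexons.

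**Figure D4:**
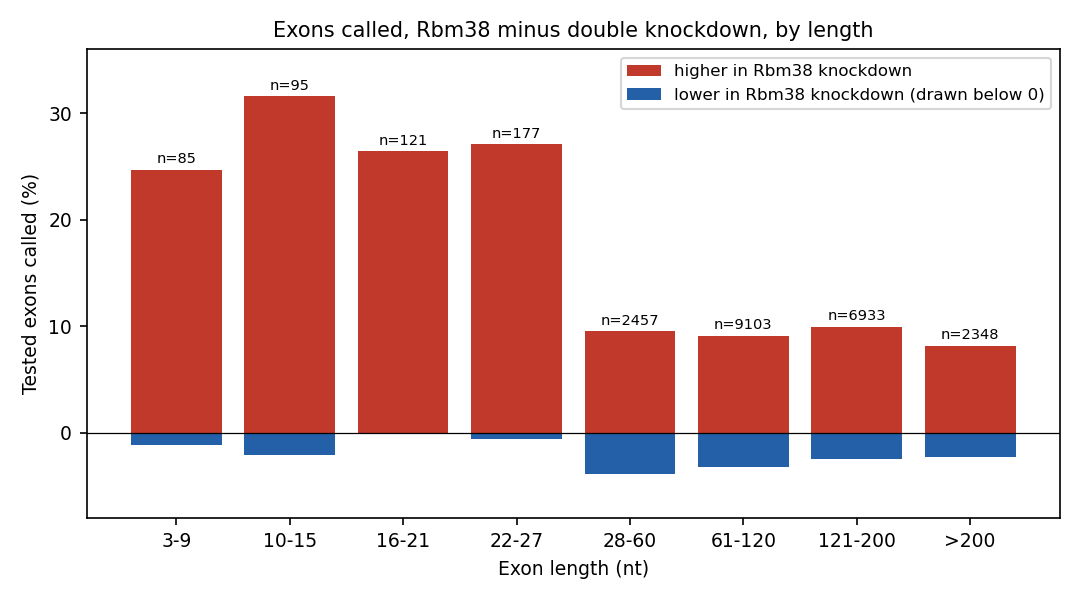
Share of tested exons (%) called higher (red, upward) or lower (blue, drawn below 0) in the Rbm38 knockdown than in the double knockdown, by exon length in nt; n is the number of exons tested in each length class. The upward share is 24.7% to 31.6% in the 4 classes up to 27 nt and 8.18% to 9.95% in the 4 longer ones.

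The called exons were also described by their control level and base composition. Exons above 80% inclusion in siNT gave 1603 calls higher (10.7%) and 104 lower (0.697%) in the Rbm38 knockdown among 14923 tested, and exons below 20% gave 80 higher (1.94%) and 259 lower (6.28%) among 4127 (8.21% in all). Of longer exons called higher in the Rbm38 knockdown, 91.7% were matched to the annotation, and these had a median GC content of 43.3%, against 50.0% for exons not called (80.8% matched). For exons called lower, 78.0% were matched, and for microexons not called 70.6%, both under the 80% set as the minimum, so no GC value is compared for them. Among matched coding exons, 45.6% of those called higher and 40.8% of those not called had a length divisible by 3.

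Host genes of the called exons were examined by list, with all exons called in 12.6% of 21319 tested, 9.74% higher and 2.88% lower in the Rbm38 knockdown. The lists were chosen with earlier results of these data known, so their shares are no independent support. Genes of the cytoskeleton and its motors had 100 of 332 exons called (30.1%), 77 higher and 23 lower in the Rbm38 knockdown. Vesicle and endocytosis genes had 75 of 307 (24.4%), 63 and 12, and splicing regulators 32 of 133 (24.1%), 23 and 9. Neuronal differentiation and synapse genes had 13 of 74 (17.6%), 9 and 4. The median difference over all tested exons was 3.02 points for the cytoskeleton list, 4.45 for the vesicle list, 0.78 for splicing regulators and -0.30 for the neuronal list, beside 0.77 for all exons. Actomyosin and smooth muscle type genes had 11 of 53 (20.8%), 8 and 3. Shares above that of all exons were also seen for p53 targets (6 of 28, 21.4%), cholesterol genes (7 of 34, 20.6%) and G2 and M phase genes (19 of 105, 18.1%). The p53 calls, 1 higher and 5 lower, came from 3 genes. The cholesterol calls, 6 and 1, came from 7 genes, and the G2 and M phase calls, 17 and 2, from 9. Lower shares were seen for MYC targets (3.57%), interferon-stimulated genes (3.85%), sympathoadrenal factors (5.0%) and integrated stress genes (6.25%), among others. The exons named in the next 3 paragraphs were picked after their values were seen. They come from the genes with the largest called differences in their lists, so they show extremes and not typical members.

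Among cytoskeletal hosts, a 69-nt exon of Ktn1, a kinesin receptor, was at 90.5% and 89.2% in the Rbm38 libraries and 24.3% and 25.4% in the double knockdown (65 points, adjusted p = 8.72e-06). The 42-nt exon of Numa1, which anchors spindle poles, was at 87.1% and 85.8%, with siNT at 69.7% to 72.0% and the double knockdown at 30.7% and 30.4%. Map2 (listed as Mtap2), a dendritic microtubule protein, had a 93-nt exon lower after Rbm38 depletion, at 24.8% and 24.5% against 78.2% and 73.7% (adjusted p = 0.000202). Ppp1r9a had 4 entries of 84 to 244 nt that went this way, by -69.4 to -60.3 points, and a 1619-nt entry that was higher after Rbm38 depletion by 17.1 points, a call lost without any of the 4 libraries compared (adjusted p = 0.0548 to 0.292). In the actomyosin list, the tropomyosin gene Tpm1 has 2 exons of 76 nt that moved in opposite directions: the first was at 33.7% and 26.4% in the Rbm38 libraries, 41.9% to 47.3% in siNT and 76.6% and 76.6% in the double knockdown, and the second at 67.2% and 72.1%, 50.9% to 55.8%, and 24.9% and 25.8%. Their adjusted p was 4.08e-05 and 4.52e-05, and both had at least 655 reads in every library.

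Among vesicle genes, the 27-nt exon of Snx14, a sorting nexin, was at 86.5% and 91.7% in the Rbm38 libraries and 13.1% and 18.4% in the double knockdown. Exons of the COPII coat followed: the 78-nt exon of Sec31a was at 94.8% and 90.6% against 23.4% and 20.3%, and the 105-nt exon of Sec24b differed by 60.5 points. The 9-nt exon of Asap1, a regulator of Arf GTPases, was at 95.2% and 94.7% against 29.9% and 35.1%, with siNT at 91.8% to 95.2%. All 4 had adjusted p between 1.20e-05 and 0.000121. The control stood below the Rbm38 libraries in Snx14 and Sec31a and overlapped with them in Asap1.

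Among splicing regulators, Ptbp2, the neuronal relative of Ptbp1, had 5 exons that were mostly included in siNT and after Rbm38 depletion and lower in the double knockdown. Its 34-nt exon, whose skipping is known to shift the frame, was at 87.3% and 86.8% against 26.5% and 18.2% (64.7 points, adjusted p = 0.000218). The other 4 exons, of 93 to 173 nt, were at 99.03% to 100% in the Rbm38 libraries and at 45.05% to 65.2% in the double knockdown. Of these, the 93-nt exon lost its call without Rbm38 replicate B (adjusted p = 0.179). Expression of Ptbp2 stood at 104 RPKM in siNT, 72.7 in the Rbm38 knockdown and 43.3 in the double knockdown. Zfp207 (48 nt) was at 95.4% and 92.5% against 44.98% and 38.6%, and Rbm25 (54 nt) at 96.3% and 96.4% against 49.8% and 46.6%. The 73-nt exon of Hnrnpa2b1 went the other way, at 41.6% and 37.1% against 68.2% and 70.6% (adjusted p = 0.00245). Outside this list, Ttk, the spindle checkpoint kinase, had 6 exons lower in the double knockdown, by 23.4 to 42.01 points; with a term for the library set 4 of the 6 lost their call (adjusted p = 0.0898 to 0.562). Its mRNA stood at 27.1 RPKM in the Rbm38 knockdown and 9.92 in the double knockdown.

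Retained introns were called about as often in both directions, 199 higher (0.748%) and 189 lower (0.711%) in the Rbm38 knockdown, and differed by length. Introns up to 200 nt (1.24% called) gave 64 higher (1.2%) and 2 lower (0.0375%) among 5340 tested, and introns over 1000 nt (1.73%) 69 higher (0.547%) and 149 lower (1.18%) among 12614. A 1647-nt intron of Vps13a, a lipid transfer protein, was retained at 11.9% and 7.58% in the Rbm38 libraries and 62.8% and 84.0% in the double knockdown (-63.6 points, adjusted p = 0.00157), with siNT at 7.56% to 14.7%. Introns of Dennd5b (2735 nt, 3.90% and 4.03% against 54.0% and 61.5%) and Cnot4 (4703 nt, 16.8% and 5.88% against 70.0% and 56.2%) went the same way. A 1647-nt intron of Zxdc went the other way, at 57.9% and 72.7% against 12.5% and 6.19%, with siNT between them at 27.1% to 40.8%. An intron of Zwint (10510 nt) and a 210-nt intron of Clcn2 were higher in the Rbm38 knockdown by 56.1 and 52.7 points. Host genes of introns lower in the Rbm38 knockdown had higher expression there past 2-fold in 22 and lower in 2 of 160 with a value (15% in all). Hosts of introns higher in it had 1 higher and 17 lower of 166 (10.8%), and hosts of introns not called 287 and 231 of 7048 (7.35%). PSI and RPKM come from the same libraries, so these are descriptions.

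Introns of the targeted genes themselves were called as well. A 521-nt intron of Rbm38 (chr2:173022271-173022791 in GRCm38) was retained at 24.1% and 7.22% in the Rbm38 libraries and at 0.79% and 1.79% in the double knockdown. Fubp1 had introns of 2714 and 1953 nt at 2.19% to 4.65% in the Rbm38 libraries and 8.89% to 35.2% in the double knockdown, and a 99-nt intron of Khsrp was at 3.88% and 2.82% against 17.3% and 13.8%. In each case retention was higher where that gene was depleted, and the lowest read number of these events in any library was 18 to 49. All 4 calls were lost when double knockdown replicate A was left out (adjusted p from 0.075 to 0.275). Those of the 2714-nt intron, Khsrp and Rbm38 were also lost without Rbm38 replicate A (0.0582 to 0.122), and that of Khsrp without Rbm38 replicate B (0.149), double knockdown replicate B (0.102), Khsrp replicate A (0.0501) or siNT replicate A (0.05).

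Alternative 3′ splice sites were called higher in the Rbm38 knockdown in 61 cases (0.867%) and lower in 33 (0.469%), and alternative 5′ splice sites in 49 (0.944%) and 26 (0.501%). The 15-nt extension at a 3′ splice site of Cask, a synaptic scaffold kinase, was used at 11.3% and 18.2% in the Rbm38 libraries, 21.7% to 37.7% in siNT, and 91.8% and 84.1% in the double knockdown (-73.2 points, adjusted p = 0.000336). A 30-nt site of Gdi2, which recycles Rab GTPases, was at 4.40% and 7.48% against 78.1% and 76.2%, with siNT at 5.65% to 8.14%. Sites of Pdlim5 (82.3% and 80.8% against 35.9% and 40.3%) and of the sodium channel gene Scn9a (95.9% and 91.4% against 46.0% and 54.3%) were higher in the Rbm38 knockdown. The 13-nt site of Cenpk, a centromere protein, was at 7.80% and 12.2% against 54.4% and 55.8%.

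Expression differed past 2-fold between the knockdowns in 1438 of 13340 genes with at least 1 RPKM in either (10.8%), 795 higher in the Rbm38 knockdown (5.96%) and 643 lower (4.82%). Each group has 1 value, so no gene has a replicate check here, and folds are log2 ratios of RPKM + 1. In bulk RNA, fewer cells of a type and less RNA per cell cannot be told apart. Fold changes and FDR values against siNT are those of the authors' deposited table, and both knockdowns share the same siNT there.

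Contractile genes that passed 2-fold were all higher in the double knockdown. Of 38 actomyosin and smooth muscle type genes with at least 1 RPKM, 16 were past 2-fold in that direction and 0 in the other, with a median log2 ratio of -0.77 beside 0.005 for all genes. Myl9, a regulatory light chain of smooth muscle myosin, was at 4.71 RPKM in siNT, 8.03 in the Rbm38 knockdown and 139 in the double knockdown (log2 ratio -3.96). Acta2, smooth muscle actin, was at 3.89, 4.12 and 60.9 RPKM, and Actg2 at 5.42, 6.05 and 32.1. Cnn2, a calponin, differed in that the Rbm38 knockdown was also below the control, at 66.4, 23.02 and 207 RPKM. For Cnn2 the authors' deposited table gives a log2 fold change against siNT of -1.63 for Rbm38 (FDR 5.17e-24) and 1.56 for the double knockdown (FDR 2.88e-26). The transcription factor gene Srf was at 14.3, 11.2 and 27.5 RPKM. Of the mesenchymal markers, 3 of 15 reached 1 RPKM, with differences in both directions (values in siNT, the Rbm38 knockdown and the double knockdown): Fbln1 was at 98.7, 107 and 47.9 RPKM and Dcn at 0.32, 1.14 and 0.06, whereas Pdgfra was at 1.12, 0.50 and 2.23. The summed level of the list, 101, 109 and 51.5 RPKM, is nearly all Fbln1, and 3 of the 15 were listed at 0 in both knockdowns. Interferon-stimulated genes had 1 gene higher and 4 lower past 2-fold of 30 (median log2 ratio -0.38).

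Neuronal and sympathoadrenal genes leaned the other way, as did the neural crest line markers (median log2 ratio 0.64), and the part of the line's makeup in this was not tested. Of 46 neuronal differentiation and synapse genes, 11 were past 2-fold higher in the Rbm38 knockdown and 1 lower (median log2 ratio 0.56), and of 22 sympathoadrenal and neuroendocrine factors 7 and 0 (0.51). Cplx2, a complexin of vesicle fusion, was at 16.1 RPKM in siNT, 29.3 in the Rbm38 knockdown and 4.99 in the double knockdown, so the control lay between them. In the authors' deposited table its log2 fold change was 0.72 for Rbm38 (FDR 2.42e-05) and -1.81 for the double knockdown (FDR 9.10e-28). Slc18a2, the vesicular monoamine transporter, was at 61.4, 81.9 and 21.3 RPKM, and Rab3a, a vesicle GTPase, at 14.7, 26.0 and 6.95. Dbh, which makes noradrenaline, was at 18.8, 14.98 and 2.75 RPKM, and the transcription factor gene Myt1 at 40.8, 39.7 and 10.0, both near the control in the Rbm38 knockdown. Mycn was at 13.1, 20.1 and 5.77 RPKM. The exception was Stmn4, a stathmin, at 22.8, 32.5 and 104 RPKM.

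**Figure D5:**
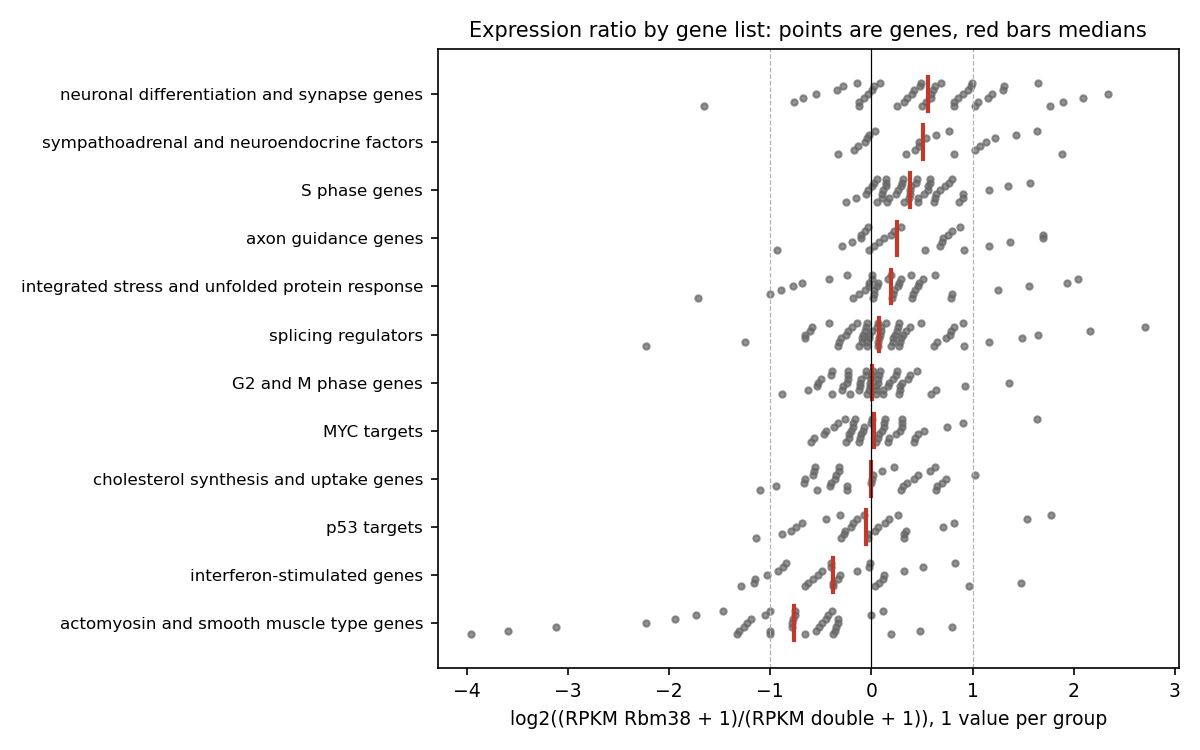
Log2 ratio of (RPKM + 1), Rbm38 knockdown over double knockdown, for the genes (points) of 12 lists with at least 1 RPKM in either knockdown; red bars are list medians, dashed lines 2-fold, and each gene has 1 value per group without replicates. Medians run from -0.77 for actomyosin genes to 0.56 for neuronal genes, beside 0.005 for all 13340 genes.

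Genes of the S phase, G2 and M phase, MYC, p53 and cholesterol lists passed 2-fold less often than actomyosin and neuronal genes. Of 48 S phase genes, 44 had a ratio above 0, with a median of 0.38 beside 0.005 for all genes. The share of all genes above 0 was not determined. The authors' FDR for the double knockdown against siNT was below 0.05 in 34 of these 48, in 27 of 46 neuronal and in 22 of 38 actomyosin genes. By that count S phase genes did not differ less. For the Rbm38 knockdown the counts were 9, 17 and 13. Past 2-fold were 3 S phase genes, all higher in the Rbm38 knockdown. In siNT, the Rbm38 knockdown and the double knockdown, Tyms was at 97.4, 102.6 and 33.8 RPKM. Hells was at 116, 58.9 and 22.4 RPKM, and Dscc1 at 8.52, 9.68 and 3.76. G2 and M phase genes had 1 of 53 past 2-fold and a median of 0.00, MYC targets 1 of 42 and 0.03, p53 targets 2 higher and 1 lower of 28 and -0.05, and cholesterol genes 1 and 1 of 33 and -0.01. Among p53 targets the 2 higher were Gdf15 (9.75, 24.2 and 6.32 RPKM) and Ephx1 (16.8, 40.6 and 13.3), and the lower was Gadd45a (12.5, 9 and 20.99).

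Highest in the Rbm38 knockdown were Got1l1 (5.96 RPKM in siNT, 23.8 in the Rbm38 knockdown and 1.34 in the double knockdown), Srl (28.5, 26.7 and 1.74), Dzip3 (60.6, 43.8 and 3.75), Esx1 (24.2, 30.1 and 2.49) and Adamtsl2 (6.73, 25.7 and 2.41). In Got1l1 and Adamtsl2 the control lay between both knockdowns, and in Srl, Dzip3 and Esx1 it lay near the Rbm38 knockdown. Lowest, beside Myl9, Acta2 and Cnn2 given above, were Ifitm3, an interferon-induced membrane protein (4.50, 3.34 and 96.7 RPKM), Timp3, a metalloprotease inhibitor (1.62, 0.97 and 21.2), the entry RP24-137C19.1 (0.19, 0.08 and 7.80), Mgarp (7.44, 3.67 and 34.98) and Apol10b (5.26, 5.36 and 44.4).

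Most regulators of neuronal exons, chosen after their values were seen, were higher in the Rbm38 knockdown than in the double knockdown. The exceptions were Nova2 (log2 ratio -0.42), Ptbp1 (-0.10) and Srsf11 (-0.04), and the median of all genes was 0.005. Several of the higher ones differed little: Elavl3 (0.07), Rnps1 (0.12), Srrm4 (0.19), Nova1 (0.21), Rbfox2 (0.23) and Mbnl2 (0.29). Mbnl1 (0.91) and Ptbp2 (0.74) were higher without passing 2-fold. Srrm4 was at 10.96 RPKM in siNT, 8.79 in the Rbm38 knockdown and 7.58 in the double knockdown, and Srrm3 at 17.2, 19.7 and 12.4. Ptbp1 was at 396, 247 and 264 RPKM. Rbfox1 was at 4.54, 3.45 and 0.59 RPKM and Celf4 at 12.8, 9.65 and 2.39, both past 2-fold lower in the double knockdown. Elavl2 and Elavl4 were at 106 and 127 RPKM in the Rbm38 knockdown and 55.9 and 71.6 in the double knockdown. The part of these levels in the splicing differences was not tested.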

How the data were processed

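RNA-seq of N2A cells in 11 libraries was used, grouped by their labels. The authors deposited PSI per event and library in percent, each with corrected inclusion and exclusion reads; the build of that table was not given in the sources used here. They also deposited RPKM per group, and log2 fold changes, p-values and FDR values against siNT. The submitters' processing notes name Salmon 0.14.1, edgeR and mm10, without roles. A further table deposited by the authors holds a PSI score per group and their significance marks, with no criterion stated; only the marks were used.

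Here, reads were turned into log2((inclusion + 0.5)/(exclusion + 0.5)) and fitted with limma 3.58.1 (R 4.3.3) across all 60137 events with at least 10 reads in every library and a mean PSI of 1 to 99. Each group had 1 mean, weights combined binomial and between-library variance (SD 0.236), and p-values were Benjamini-Hochberg adjusted over all events. With 2 libraries a group, all 11 share 1 estimate of spread. Recomputed PSI differed from the deposited values by at most 0.25 points. On simulated data for this contrast over 60137 events, with 1600 events changed by 15 points and 1600 by 30 points, 73.4% and 96.2% were recovered, and 0.731% of calls were false; with 100 events changed at each size, 50% and 88% were recovered. In the simulation every event had the same between-library spread, and only the double knockdown was changed. Real events can differ in spread, so these shares may not hold for them. Median reads per event in the other libraries ran from 113 to 221. Replicates of a group differed beyond counting error in 18.7% to 27.5% of events.

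Exons were matched to GENCODE vM21 (GRCm38) by exon length and flanking intron lengths, or 1 intron where that was unique (added after a first match rate was seen): 17388 of 21319. Named events were the largest called differences of each type and direction at 20 reads or more, the 12 exons farthest from the control on both sides, and events of the targeted genes; named genes were the targets, the largest ratios at 5 RPKM or more, and the largest of each list. Further exons and regulator genes, named as such, and Actg2, Srf, Rab3a and Stmn4 were picked after values were seen. The members and the 19 lists were chosen with earlier results of these data known. Alternatives were other weights, filters, thresholds, libraries and pseudocounts.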

Additional observations from a re-analysis of the deposited data

How the results depend on the processing

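The count of 3246 called events was 1945 with the 4 compared libraries alone, 2017 without the filter on mean PSI, 1923 at 20 points, and 1735 to 3221 when single libraries were left out. It stayed within 1.5 times under other weights, another added read number, a higher read minimum, a library set term and the 7 libraries numbered 8 to 27. The 131 microexons called higher stayed within 94 to 132 when single libraries were left out. The 726 events with the control between numbered 271 at a margin of 10 points, and 377 to 722 without single libraries. Against siNT, the 10 events called for Rbm38 numbered 0 without weights or with a term for the library set, and 0 to 41 without single libraries; the 3723 for the double knockdown numbered 1696 with that term and 2449 to 3719 without single libraries (alternatives added after the data were seen). The 1438 genes past 2-fold numbered 2238 at a pseudocount of 0.1 RPKM, 447 at 5 RPKM, 934 among genes with at least 5 RPKM, and 2280 by the difference of the authors' log2 fold changes (an alternative added after the data were seen). Fewer samples, fewer genes or a stricter size follow from the construction of several of these settings; for the others the cause was not tested. The 711-nt exon of Mapt, not called between the knockdowns, ran from -0.36 to 6.28 points without single libraries and was the only named event to change direction. At most 11 of the 53 named by the first rule lost their call, without double knockdown replicate A.

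The replicate letter as a replicate block gave 3342 calls in place of 3246. The labels do not say whether libraries of the same letter were prepared together. Deviations of the A and B libraries from their group means correlated at -0.0619 between the knockdowns. This single value over all events cannot settle whether the letters mark pairs. Low read numbers limit events such as those of the targeted genes, and expression, with 1 value per group, has no error.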
